A study of Mus musculus with 24 samples.

Results

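The glutathione S-transferases (GSTs) described here are 10 genes of the mouse, Gsta1, Gsta2, Gsta3 and Gsta4 of the alpha class, Gstm1, Gstm2, Gstm3 and Gstm5 of the mu class, Gstp1 of the pi class and Gstt1 of the theta class. They were taken by name from the annotation of a whole-genome oligonucleotide array that covers 18442 protein-coding genes, and all 10 were found, each by its current symbol, with 13 probes in all. The cells were immortalized Ku70-/- mouse embryonic fibroblasts, a single line that the labels give a deletion of the Ku70 gene (Xrcc6), which the untreated controls carry too. Ku70 is a subunit of the complex that starts the repair of DNA double-strand breaks by end joining. The first set has 15 arrays, 3 per group: an untreated control, KBrO3 at 4 hr and at 24 hr (20 mM potassium bromate, an oxidizing agent, given over 1 hr), and co-exposure at 4 hr and at 24 hr, in which the same KBrO3 dose was preceded, accompanied and followed by 150 μM BPA (bisphenol A). The second set has 9 arrays, again 3 per group: a separate untreated control and 150 μM BPA alone at 4 hr and at 24 hr. The labels place the controls of the first set at 4 hr and give no time for those of the second, so that every 24-hr value was compared with controls that are not labeled as sampled at 24 hr. The study's methods give BPA-only exposures that are 1 hr longer than those on the labels.

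GSTs are enzymes that join the tripeptide glutathione to electrophilic molecules, which makes these molecules more soluble and ready for export, and several alpha-class enzymes also reduce lipid hydroperoxides. The genes of the alpha and mu classes lie in clusters of close copies. Many of them are known targets of NRF2, a transcription factor that is released from its inhibitor KEAP1 when cells meet oxidants or electrophiles, and some also respond to the aryl hydrocarbon receptor AHR.

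Which transcript a probe reads matters here, because Gsta1 and Gsta2 are near copies of each other. The 60-base probes for Gsta1 and Gsta2 are shown because the array annotation lists transcripts of both genes for each of them. The capitals mark the longest run that both probes share, of 20 bases.
Gsta1 probe: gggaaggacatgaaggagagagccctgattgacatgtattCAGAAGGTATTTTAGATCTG
Gsta2 probe: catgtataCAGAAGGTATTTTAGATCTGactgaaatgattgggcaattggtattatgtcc
The probes overlap over 28 bases with 1 difference, T40A, counted from the 5′ end of the Gsta1 probe. The Gsta2 probe lies on the minus strand at chr9:78408171-78408230 of the mm7 build that the array files name, and no position is given for the Gsta1 probe. The Gsta1 and Gsta2 values are therefore open to signal from either transcript, and the share of each was not tested. The Gsta4 probe is shown because the array carries it in 10 spots, and the Gstp1 probe because its annotation also lists Gstp2, a near-identical neighbor. The mm7 spans in which the probes lie are chr9:78241323-78242428 on the plus strand for Gsta4, a span longer than the probe itself, and chr19:3930292-3930351 on the minus strand for Gstp1.
Gsta4 probe: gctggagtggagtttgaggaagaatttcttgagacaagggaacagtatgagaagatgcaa
Gstp1 probe: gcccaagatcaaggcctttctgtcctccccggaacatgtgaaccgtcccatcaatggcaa

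Values are processed Cy3 signals on the log2 scale minus the 75th percentile of their array, called normalized log2 signals, so that 0 is that percentile. Levels of different genes cannot be compared, because each probe has its own efficiency. The share of spots well above background ran from 57.7% to 68.1% in the first set, and from 76.4% to 79.4% in the second. The spread between replicate arrays was smaller in the first set, with a median residual SD of 0.107 over 27309 probes, than in the second, with 0.34 over 31810 probes. In the first set, only KBrO3 at 4 hr shares a slide with a control, so that for the other comparisons with control the effect of slide and that of treatment cannot be told apart. The study's methods call the 3 samples of a group biological replicates of the one line, so p-values measure the spread between such samples. All 10 fibroblast markers checked were well above background on every control array, whereas none of the first set's arrays showed the hepatocyte markers Alb, Ttr and Apoa1 well above background. In the second set Ttr was on no array either, but Alb and Apoa1 were well above background on at least 1 array of every group. The Xrcc6 probe read −0.60 to 0.57 on the first set's arrays and −0.55 to 0.73 on the second's, well above background on all 24 arrays, and it does not check the labeled deletion, since no Ku70-proficient cells were measured and whether the probe lies in the deleted part is not given in the sources used here.

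**Figure D1:**
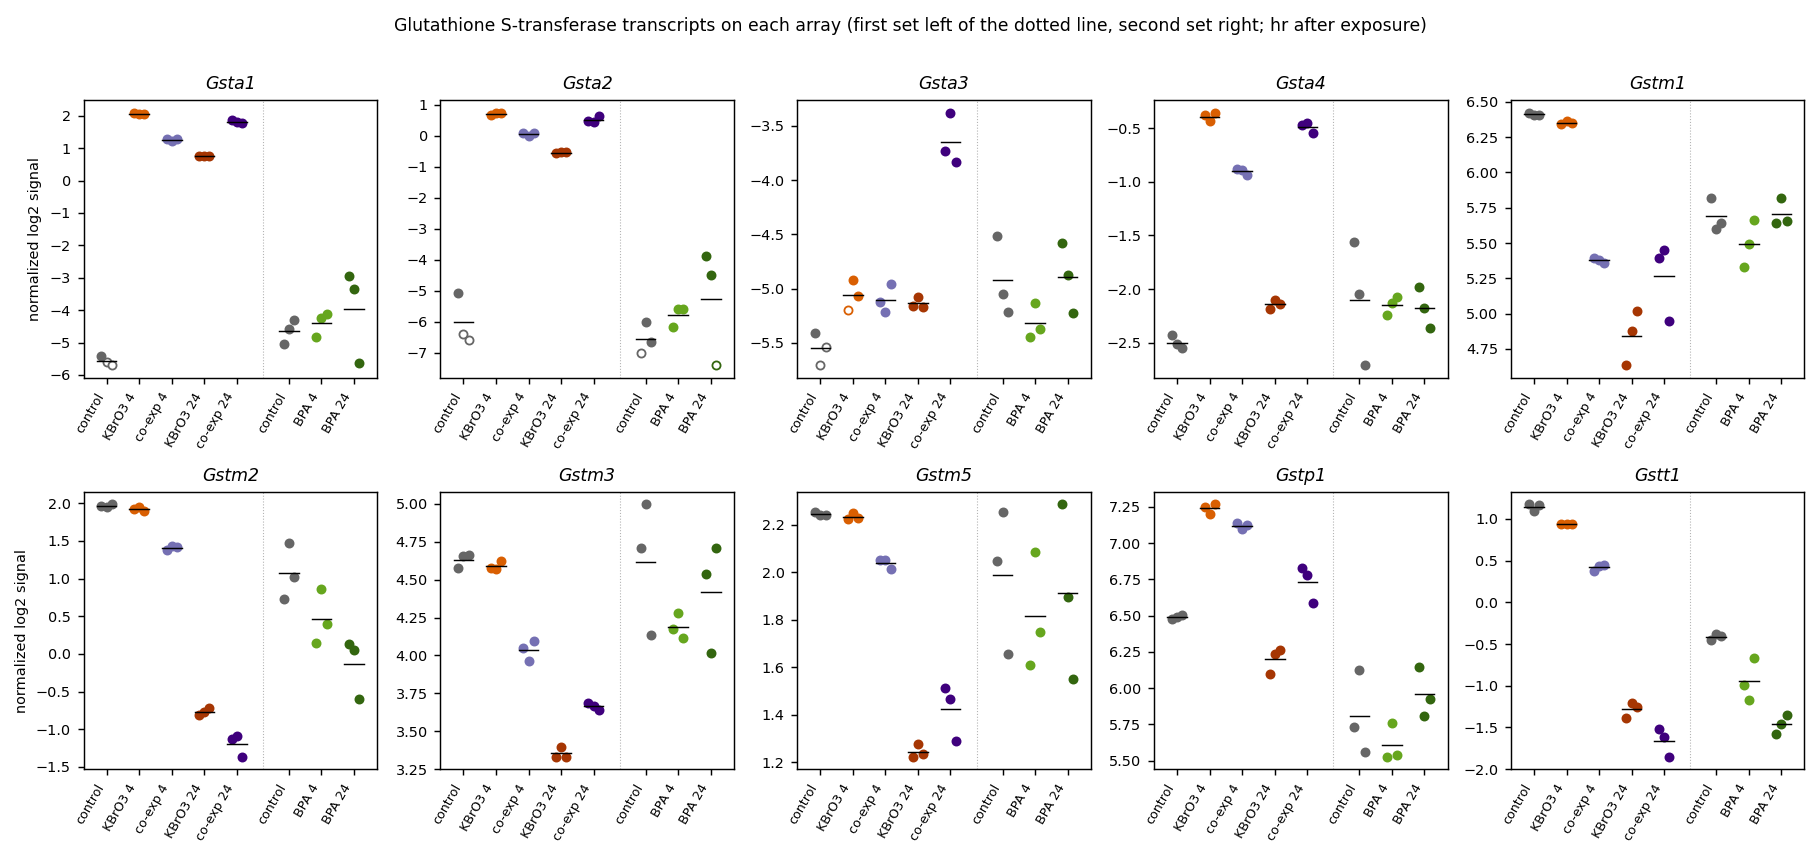
Normalized log2 signal of each GST gene on every array (vertical axis, with its own range per gene), by group (horizontal axis). Filled points are arrays on which the probe was well above background, open points are the others, and bars are group means of 3 arrays; Gsta1 reads 2.05 to 2.09 after KBrO3 at 4 hr against −5.70 to −5.42 in the first set's controls.

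Gsta1 and Gsta2, whose enzymes conjugate electrophiles and reduce lipid peroxides, went from the edge of detection to clear signal in every KBrO3-containing treatment. Gsta1 read −5.42, −5.61 and −5.70 in the controls, 2.09, 2.06 and 2.05 after KBrO3 at 4 hr and 1.27, 1.23 and 1.28 after co-exposure at 4 hr. At 24 hr it read 0.75, 0.77 and 0.77 after KBrO3 and 1.87, 1.80 and 1.77 after co-exposure. No treated array overlapped the controls, and the treated groups did not overlap each other. The order was KBrO3 at 4 hr, co-exposure at 24 hr, co-exposure at 4 hr, KBrO3 at 24 hr and control. The rise over control came to 7.64 on the log2 scale (SE 0.0602, adjusted p = 1.3e-15) for KBrO3 at 4 hr and was lowest, at 6.34 (SE 0.0602, adjusted p = 7.64e-15), for KBrO3 at 24 hr. The control signal sets the size of these rises, since the probe was well above background on 1 of 3 control arrays. Gsta1 entered the test through the treated groups, where every array was well above background, as did Gsta2. The filter itself thus favors a rise for both, and their p-values are no separate support for it. With a background correction that adds an offset of 50 to all signals (normexp), the rise at 4 hr was 4.25 after KBrO3 and 3.46 after co-exposure and that at 24 hr 3.02 and 4.0, in the same direction and still altered.

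The groups had the same order for Gsta2. Its signal was −5.07, −6.40 and −6.60 in the controls, of which 1 array was well above background, and 0.67, 0.73 and 0.72 after KBrO3 at 4 hr. It was 0.07, −0.02 and 0.09 after co-exposure at 4 hr, −0.57, −0.54 and −0.53 after KBrO3 at 24 hr and 0.47, 0.44 and 0.62 after co-exposure at 24 hr. The groups were apart from each other and from the controls. Against control these readings correspond to fold changes of 106 and 67.2 at 4 hr for KBrO3 and co-exposure and of 44.6 and 92.9 at 24 hr, with a larger SE, 0.286 on the log2 scale, that comes with the scattered control readings. These folds depend on the background correction, since with normexp the log2 rises were 2.79 and 2.15 at 4 hr in place of 6.73 and 6.07, and 1.62 and 2.67 at 24 hr in place of 5.48 and 6.54.

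Gsta4, whose enzyme detoxifies 4-hydroxynonenal, a product of lipid peroxidation, rose in 3 of the 4 KBrO3-containing groups. It read −2.43, −2.52 and −2.55 in the controls, −0.38, −0.44 and −0.36 after KBrO3 at 4 hr and −0.88, −0.89 and −0.94 after co-exposure at 4 hr. By 24 hr the KBrO3 arrays were back at −2.19, −2.10 and −2.14, whereas the co-exposed arrays read −0.48, −0.45 and −0.55. No treated array overlapped the controls. Fold changes were 4.31 and 3.03 at 4 hr and 4.02 for co-exposure at 24 hr (adjusted p = 2.65e-12), while KBrO3 at 24 hr reached 1.28 and was not altered. The 10 spots of the Gsta4 probe also give the technical error within an array, an SD of 0.0247 to 0.229 over arrays of the first set with a median of 0.0614. The co-exposure result at 4 hr is no longer altered with normexp, where the log2 rise is 0.64. With normexp the rises were 1.06 after KBrO3 at 4 hr and 0.96 after co-exposure at 24 hr, both still altered, and the difference after KBrO3 at 24 hr turned to −0.48.

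Gsta3 rose in 1 group. It read −5.40, −5.71 and −5.54 in the controls and −3.73, −3.38 and −3.83 after co-exposure at 24 hr, and between −5.22 and −4.92 on the other 9 treated arrays, which were above the controls by 0.42 to 0.49 on average and within 1.5-fold. The co-exposed arrays at 24 hr thus stood above all others of the set, with a fold change of 3.74 (log2 1.90, SE 0.12, adjusted p = 2.8e-08). All these readings are dim, with 1 of 3 control arrays well above background. With normexp the direction turned in all 4 groups, to −0.94 at 4 hr and −1.50 at 24 hr for KBrO3 and to −1.08 and −0.68 for co-exposure. With quantile normalization Gsta3 was altered upward by KBrO3 at 24 hr too, at a log2 value of 0.62. A second probe for Gsta3 was well above background on 1 array after co-exposure at 24 hr and on no control array, which bounds its fold at at least 1.19-fold higher. Such a bound compares the brighter group's mean with a floor, which on each array is the weakest signal that was still well above background, or the dim probe's reading where that is stronger.

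Gstp1, the pi-class enzyme, rose at 4 hr and was close to control at 24 hr. It read 6.48, 6.49 and 6.51 in the controls, 7.25, 7.20 and 7.27 after KBrO3 at 4 hr and 7.14, 7.10 and 7.13 after co-exposure at 4 hr. Both fold changes passed the test, 1.68 (adjusted p = 2.37e-07) and 1.55 (adjusted p = 1.1e-06). At 24 hr the arrays lay below all controls after KBrO3, at 6.10, 6.24 and 6.26, and above all controls after co-exposure, at 6.83, 6.78 and 6.58, with fold changes of −1.22 and 1.18 that stayed within 1.5-fold. The second Gstp1 probe gave log2 differences of 0.79, 0.74, −0.14 and 0.35 for the groups in the same order. The rises at 4 hr fell to 0.29 and 0.22 on the log2 scale with quantile normalization and were then not altered, and with scaling to the array median the one for co-exposure, 0.49, was not either.

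The mu-class genes and Gstt1 moved the other way. After KBrO3 alone they were lower at 24 hr, whereas after co-exposure Gstm1, Gstm3 and Gstt1 were already lower at 4 hr. Gstm2 read 1.96, 1.95 and 1.99 in the controls and 1.92, 1.95 and 1.90 after KBrO3 at 4 hr, groups that overlap. It then read −0.81, −0.77 and −0.71 after KBrO3 at 24 hr and −1.13, −1.09 and −1.36 after co-exposure at 24 hr. The late arrays lay far below all controls, at fold changes of −6.63 (adjusted p = 7.16e-12) and −8.92 (adjusted p = 9.64e-13). After co-exposure at 4 hr the readings were 1.37, 1.44 and 1.42, below all controls at a fold change of −1.47, which misses 1.5-fold; with quantile normalization or scaling to the array median it passed.

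Gstt1, the theta-class enzyme that acts on small halogenated molecules, followed Gstm2 closely. The controls read 1.18, 1.10 and 1.17, and the KBrO3 arrays read 0.94, 0.93 and 0.94 at 4 hr and −1.39, −1.21 and −1.25 at 24 hr. Co-exposed arrays read 0.38, 0.43 and 0.44 at 4 hr and −1.52, −1.61 and −1.85 at 24 hr. All of these arrays lay below the controls. The fold change was −1.16 for KBrO3 at 4 hr, which was not altered, −1.66 for co-exposure at 4 hr (adjusted p = 1.6e-06), −5.39 for KBrO3 at 24 hr (adjusted p = 6.91e-11) and −7.01 for co-exposure at 24 hr (adjusted p = 1.11e-11).

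The other mu-class genes fell less. Gstm1, with control readings of 6.42, 6.41 and 6.41, read 6.34, 6.37 and 6.35 after KBrO3 at 4 hr but 5.40, 5.38 and 5.36 after co-exposure at 4 hr. Its late readings were 4.63, 4.87 and 5.02 after KBrO3 and 5.40, 5.45 and 4.95 after co-exposure, groups that overlap each other but not the controls. Against control the log2 falls were −1.03 (SE 0.119, adjusted p = 4.92e-06) for co-exposure at 4 hr, −1.57 (adjusted p = 1.97e-07) for KBrO3 at 24 hr and −1.15 (adjusted p = 2.78e-06) for co-exposure at 24 hr. A second Gstm1 probe gave falls of −0.59, −1.06 and −0.70 in the same order and read 0.21 above control after KBrO3 at 4 hr. Gstm3 fell in the same 3 groups, to fold changes of −1.51, −2.42 and −1.96. The first of these stands at the edge of the threshold. It was lost with normexp, and when control replicate 2, control replicate 3 or co-exposure replicate 2 was left out, at log2 values of −0.58, −0.58 and −0.56. Gstm5 fell at 24 hr, to −2.0 after KBrO3 (adjusted p = 5.09e-09) and −1.76 after co-exposure (adjusted p = 2.12e-08), and the latter was within 1.5-fold with scaling to the array median, at a log2 value of −0.50, and with normexp, at −0.52. Neither gene was altered by KBrO3 at 4 hr, at log2 differences of −0.04 for Gstm3 and −0.01 for Gstm5, and Gstm5 differed by −0.20 after co-exposure at 4 hr.

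Counted together, KBrO3 alone left 4 of the 10 genes higher than control and 0 lower at 4 hr, and 2 higher and 5 lower at 24 hr. Altered means a fold change beyond 1.5 together with a two-sided limma p that stays below 0.05 after Benjamini-Hochberg adjustment over the set's probes. Among all 14104 genes tested, 44% were altered by KBrO3 at 4 hr, 21.1% higher and 22.8% lower, so that 4 of 10 in all is near the background. At 24 hr, 33.7% were altered, 12.7% higher and 21.1% lower, against 7 of 10 GST genes. Co-exposure left 4 genes higher and 3 lower at 4 hr, when 54.6% of all genes were altered, 28.1% higher and 26.5% lower. At the stricter threshold of the study's methods, a Bonferroni p below 0.01, 4 genes were left here, against 35.9% of all genes. It left 4 higher and 5 lower at 24 hr, when 39.5% were altered, 15.7% higher and 23.9% lower. Across these 4 comparisons, which share their 3 control arrays, no gene was altered in both directions: Gsta1, Gsta2, Gsta3, Gsta4 and Gstp1 were only altered upward, and Gstm1, Gstm2, Gstm3, Gstm5 and Gstt1 only downward. The exception among the alternatives is Gsta3, which was altered downward by KBrO3 at 24 hr with normexp. For KBrO3 at 4 hr, where the slide can be fitted as a block, 4 of all 10 genes were again altered. On the 1 slide that holds both groups Gsta1 stood 7.77 and Gsta4 2.16 above the control array. The value for Gsta1 has no firm size, since its probe was well above background on 1 of 3 control arrays.

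The fibroblast markers moved with the late falls. Their summed signal, in units of the array's 75th percentile, was 1170 to 1260 in the controls, 1100 to 1160 after KBrO3 at 4 hr, 873 to 908 after co-exposure at 4 hr, 498 to 563 after KBrO3 at 24 hr and 366 to 423 after co-exposure at 24 hr. At 24 hr 9 of the 10 markers were lower than control in both treatments. Of the hepatocyte list, the 1 gene that could be tested, Afp, was higher in all 4 comparisons, while Alb, Ttr and Apoa1 were not well above background. The summed adipocyte markers, which fibroblast cultures can express, were 44.1 to 49.9 in the controls, 53.4 to 54.4 after KBrO3 and 36.8 to 37.4 after co-exposure at 4 hr, with 1 and 2 of 3 tested markers higher, and 16.1 to 16.9 and 13 to 14.1 at 24 hr, with 1 of 3 lower in each. The skeletal muscle sum went from 2.38 to 2.89 in the controls to 0.78 to 0.801 and 0.251 to 0.362 at 24 hr, with 2 and 3 of 4 tested markers lower, while 2 of 4 were higher after co-exposure at 4 hr. Of the endothelial markers, 1 of 2 tested was higher in all 4 comparisons and 1 was lower after co-exposure at 24 hr. Of the epithelial and macrophage markers, 2 of 3 tested were higher in each list at 4 hr in both treatments, and 1 of 3 in each was lower after co-exposure, and 1 of 3 macrophage markers was higher at 24 hr in both. The epithelial sum was 0.125 to 0.166 in the controls and 0.138 to 0.26 in the treated groups at 4 hr, and the macrophage sum 2.59 to 2.68 and 1.9 to 2.63. At 24 hr the epithelial sum was 0.14 to 0.233 after KBrO3 and 0.109 to 0.14 after co-exposure. The macrophage sum was then 2.51 to 2.73 and 2.35 to 2.95. The part of these changes in the GST results was not tested. In cultured cells as in any bulk sample, fewer cells of a kind and less RNA per cell cannot be told apart.

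**Figure D2:**
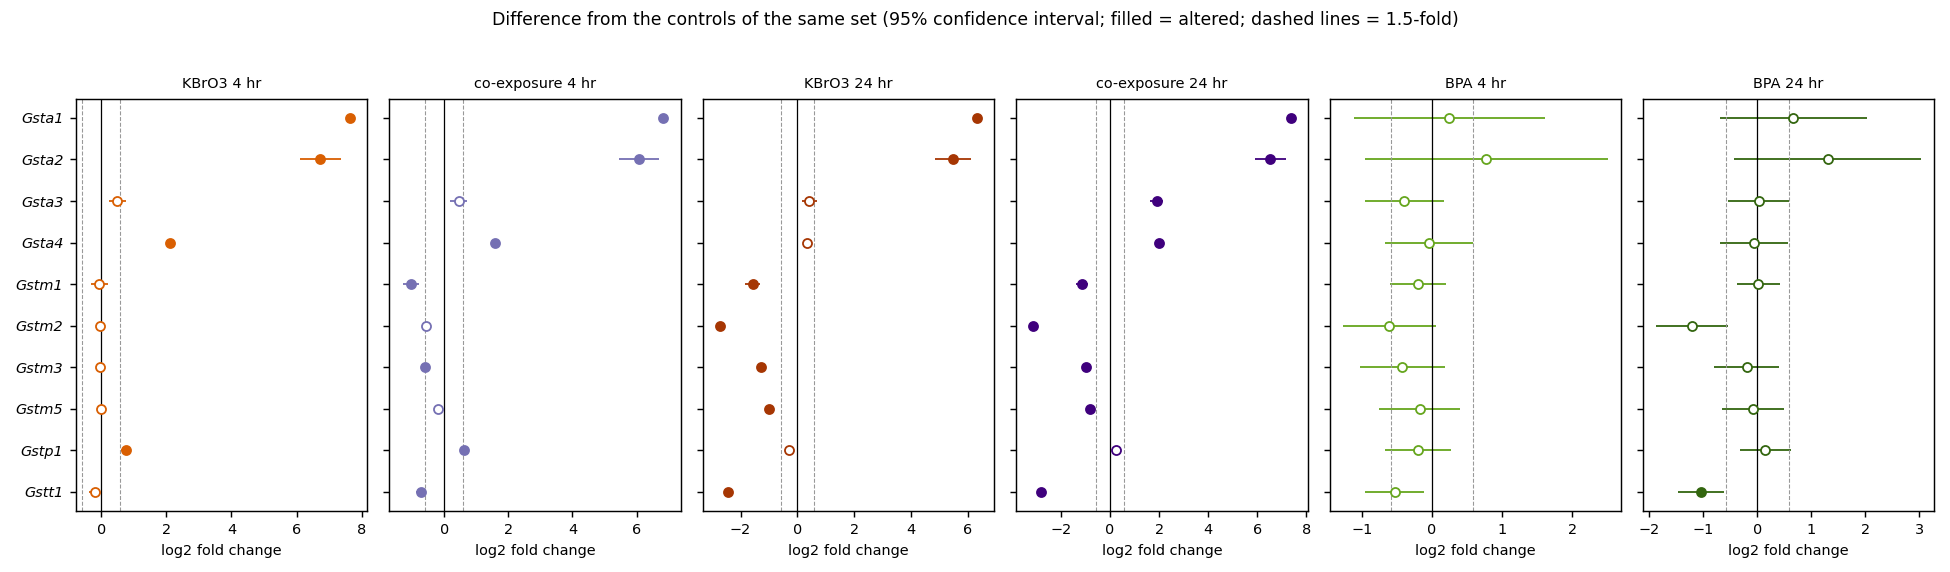
Log2 fold change of each GST gene against the controls of its own set (horizontal axis, with its own range per panel), with the 95% confidence interval. Filled points are altered genes and dashed lines mark 1.5-fold; the intervals for BPA alone are wide, as for Gsta2 at 24 hr, from −0.43 to 3.04.

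The co-exposure arrays allow the question of what BPA added to the KBrO3 response, by comparing them with KBrO3 alone at the same time. At 4 hr the readings of all 10 GST genes were lower with BPA, against 51.6% of all genes, and for 9 of them every co-exposed array lay below every KBrO3 array, as it did for 40.8% of all genes. The test passed for 2 genes, Gsta1 at −0.80 (SE 0.0602, adjusted p = 8.12e-07) and Gstm1 at −0.97 (SE 0.119, adjusted p = 3.15e-05; second probe −0.80), where 19.6% of all genes were altered, 10.6% higher and 9.05% lower. At the Bonferroni threshold 1 gene, Gsta1, was left, against 6.01% of all genes, but with normexp its call was lost, at −0.79. Gstm3, Gstt1, Gstm2 and Gsta4 had adjusted p-values between 9.97e-07 and 0.000105 at log2 differences of −0.55, −0.52, −0.51 and −0.51, within 1.5-fold, and Gstm5, Gstp1 and Gsta3 differed by −0.19, −0.12 and −0.04. Gsta2 differed by −0.66 with a 95% interval from −1.29 to −0.04 and an adjusted p of 0.0659. Its SE of 0.286 is pooled with the scattered controls, and it was altered when only the arrays compared were fitted (SE 0.0407) and in an error-weighted fit, at the same −0.66. With scaling to the array median, 7 genes were altered and all were lower, a setting that also moved the median of all genes from −0.02 to −0.16 and their calls from 1492 higher and 1277 lower to 1080 and 2154, of 14104. The summed fibroblast markers were lower as well, without overlap, at 873 to 908 against 1100 to 1160. Altered downward were 1 of 10 fibroblast, 1 of 3 epithelial, 1 of 3 macrophage and 1 of 3 adipocyte markers and the hepatocyte gene Afp, and upward 1 of 3 epithelial and 1 of 4 skeletal muscle markers. Their part in the GST differences was not tested. For this comparison slide and treatment cannot be told apart.

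At 24 hr the alpha-class genes were higher with BPA. Gsta4 stood 1.65 above KBrO3 alone (SE 0.0447, adjusted p = 2.6e-10), Gsta3 1.49 (SE 0.12, adjusted p = 1.05e-06), Gsta2 1.06 (SE 0.286, adjusted p = 0.00945) and Gsta1 1.05 (SE 0.0602, adjusted p = 6.55e-08). These 4 were the altered genes, while 14.2% of all genes were altered, 6.56% higher and 7.59% lower. The arrays of the groups did not overlap for 9 of the 10 genes, 7 of them higher with BPA, the altered 4 among these, and 2 lower, and among all genes this held for 28.8% and 23.1%. Gstp1 at 0.53, Gstm1 at 0.42, Gstm3 at 0.31 and Gstm5 at 0.18 were also above 0, within 1.5-fold, and Gstp1 passed 1.5-fold when co-exposure replicate 3 was left out, at 0.60. With scaling to the array median, Gstp1 at 0.70 and Gstm1 at 0.59 were altered too, 6 genes in all, while the calls among all 14104 genes moved from 925 higher and 1071 lower to 1760 and 690 and their median from 0.01 to 0.17. At the Bonferroni threshold 3 were left, without Gsta2, against 7.44% of all genes. Gstm2 and Gstt1 went further down with BPA, by −0.43 and −0.38, with 95% intervals from −0.56 to −0.29 and from −0.54 to −0.22 that end short of 1.5-fold. On the 1 slide that holds 2 arrays of each group, the differences were 1.66 for Gsta4, 1.57 for Gsta3, 1.07 for Gsta1 and 0.99 for Gsta2. With normexp, Gsta4 was the 1 gene still altered, while the estimates of the other 3, 0.98 for Gsta1, 1.06 for Gsta2 and 0.83 for Gsta3, kept their sign. Of the markers, 4 of 10 for fibroblasts, 2 of 3 epithelial, 2 of 4 skeletal muscle and 1 of 2 endothelial ones were lower with BPA at 24 hr and 1 of 3 macrophage markers was higher, and their part was not tested.

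Whether the difference between co-exposure and KBrO3 alone changed between the 2 times was tested as an interaction. The groups compared at 4 hr had no slide in common. A slide effect may therefore be part of every interaction estimate, and its share was not tested. All 10 estimates were above 0, against 51.5% of all genes, and 7 genes passed the test, where 26.6% of all genes did, 13.2% upward and 13.4% downward. At the Bonferroni threshold 3 were left, Gsta1, Gsta4 and Gstm3, against 4.91% of all genes. The change from 4 to 24 hr was 2.16 for Gsta4 (SE 0.0632, adjusted p = 1.94e-09), 1.85 for Gsta1 (SE 0.0852, adjusted p = 4.65e-08), 1.72 for Gsta2 (SE 0.404, adjusted p = 0.00379) and 1.53 for Gsta3 (SE 0.169, adjusted p = 2.4e-05). Gstm1 at 1.40, Gstm3 at 0.86 and Gstp1 at 0.65 were the other genes that passed. Gstm5 did not pass, and its value was 0.33 with normexp and 0.68 with scaling to the array median, where it was altered. The second Gstp1 probe gave 0.54, within 1.5-fold. With normexp the call was lost for Gsta1, Gsta2, Gsta3 and Gstp1, at 1.77, 1.70, 0.96 and 0.61, and with quantile normalization for Gstp1, at 0.49. Gstm2 and Gstt1, the genes with the deepest late falls, had differences of 0.08 and 0.14 with 95% intervals from −0.11 to 0.28 and from −0.09 to 0.37, so that a change of 1.5-fold lies outside them. The estimates for all 10 genes were above 0 under quantile normalization, scaling to the array median and normexp too, and with scaling to the array median the median of all genes was itself 0.33.

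**Figure D3:**
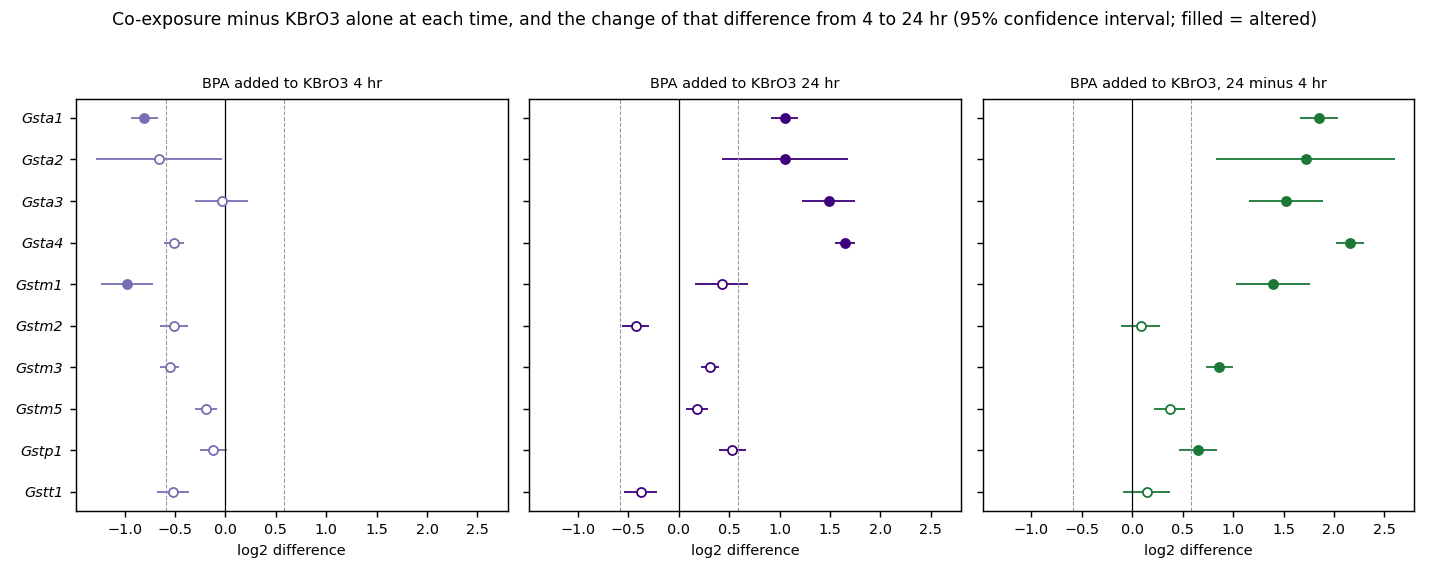
Log2 difference between co-exposure and KBrO3 alone at 4 hr and at 24 hr, and the change of that difference between the times, for each GST gene with the 95% confidence interval. Filled points are altered genes; at 4 hr all points lie below 0, and at 24 hr Gsta1, Gsta2, Gsta3 and Gsta4 lie beyond the dashed 1.5-fold line.

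From 4 to 24 hr after KBrO3 alone, 9 of the 10 genes fell and Gsta3 did not pass the test, at −0.07 with a 95% interval from −0.33 to 0.19. Among all genes 47.8% changed, 28.6% downward and 19.2% upward. The falls ranged from −0.99 for Gstm5 to −2.69 for Gstm2, and for all 9 every array at 24 hr lay below every array at 4 hr, as it did for 45% of all genes. The calls of Gsta1 and Gsta2 were lost with normexp, at −1.23 and −1.18, and that of Gstp1 with quantile normalization, at −0.29. After co-exposure 3 genes fell, Gstm2 by 2.60, Gstt1 by 2.08 and Gstm5 by 0.61 on the log2 scale, and Gsta3 rose by 1.45, against 57.5% of all genes changed, 34.1% downward and 23.4% upward. That balance turned with the scaling, from 40.7% of calls upward to 52.2% with quantile normalization and 64.2% with scaling to the array median. Gsta1, at 0.55 (adjusted p = 3.48e-06), and Gsta4, at 0.41 (adjusted p = 3.28e-06), were higher at 24 than at 4 hr after co-exposure on every array, within 1.5-fold. Both passed 1.5-fold with scaling to the array median, at 1.01 and 0.87, as did Gsta2, at 0.93 in place of 0.47, and Gsta1 also with quantile normalization, at 0.62. Gstm1, Gstm3 and Gstp1 differed by −0.11, −0.37 and −0.39. The fall of Gstm5 was within 1.5-fold with the slide as a fixed block, at −0.58, without co-exposure replicate 3 at 24 hr, at −0.55, and with quantile normalization, normexp and scaling to the array median, at −0.53, −0.58 and −0.15. The rise of Gsta3 was not altered with normexp, at 0.40.

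BPA alone was compared with the controls of the second set. At 4 hr 0 of the 10 genes were altered in limma, and 0 by a one-way analysis of variance without moderation, where 4.68% of all 15748 genes tested were, 3.01% higher and 1.67% lower. At an unadjusted p below 0.05, 1 gene passed, Gstt1, with a log2 difference of −0.53, where 20.2% of all genes passed. The other genes besides Gsta1 and Gsta2 differed by −0.39 for Gsta3, −0.04 for Gsta4, −0.19 for Gstm1, −0.61 for Gstm2, −0.42 for Gstm3, −0.17 for Gstm5 and −0.20 for Gstp1. Second probes gave −0.62 for Gsta3, −0.63 for Gstm1 and −0.45 for Gstp1 at 4 hr and 0.23, −0.14 and −0.07 at 24 hr, with no call. At 24 hr 1 gene was altered, Gstt1, where 4.31% of all genes were, 1.83% higher and 2.48% lower, and at the Bonferroni threshold 0 were, against 0.0318%. Between 4 and 24 hr of BPA 0 of the 10 differed in either test and 1 did at an unadjusted p below 0.05, Gstt1 at −0.52, where 21.3% of all genes did. The others lay between −0.60 for Gstm2 and 0.53 for Gsta2, and 4.3% of all genes were altered, 1.24% higher and 3.05% lower. Gstt1 read −0.45, −0.37 and −0.41 in the controls, −1.0, −1.17 and −0.67 at 4 hr and −1.57, −1.46 and −1.35 at 24 hr. Every BPA array lay below every control, with a fold change of −2.07 at 24 hr (SE 0.189 on the log2 scale, adjusted p = 0.0206). The call is fragile in its p-value, though not in its size, which was −0.93 to −1.13 on the log2 scale under the scalings, blocks and single-array omissions tried. It was lost when any single control array, or BPA replicate 1 or 2 at 24 hr, was left out, at −0.99 to −1.07. It was also lost with the replicate block and with only the compared arrays, both at −1.05, with the slide as a fixed block, at −1.13, with scaling to the array median, at −0.94, and with normexp, at −0.93, where 0 of all genes were altered in place of 678. On the slide that holds 2 arrays of BPA at 4 hr and 1 control the difference was −0.38, and on the 2 slides that hold a control and an array of BPA at 24 hr it was −1.13.

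Gstm2 had the same direction with BPA alone, with controls at 0.73, 1.47 and 1.02 and 24-hr arrays at 0.14, 0.06 and −0.60. The groups did not overlap, at a fold change of −2.31 that did not pass (adjusted p = 0.0616). Gstm2 and Gstt1 were the 2 genes of the 10 with every 24-hr BPA array below every control, against 11.4% of all genes. The summed markers for fibroblasts, at 492 to 551 against 560 to 701, and skeletal muscle, at 1.22 to 1.72 against 2.44 to 3.63, were lower at 24 hr as well, with 1 of 10 and 1 of 4 markers altered, and their part was not tested. The alpha-class genes were dispersed at 24 hr. Gsta1 read −2.95, −3.36 and −5.62 with BPA against −5.05, −4.59 and −4.30 in the controls, and Gsta2 read −3.87, −4.51 and −7.41 against −7.02, −6.03 and −6.66. On both probes, replicates 1 and 2 stood above all controls and replicate 3 below them. Without replicate 3 the differences became 1.49 for Gsta1 and 2.38 for Gsta2 and both genes were altered, whereas with all 3 arrays they were 0.67 (95% interval from −0.69 to 2.03) and 1.31 (from −0.43 to 3.04). Within the 2 shared slides they were 1.29 and 2.15, and with normexp the direction turned, to −0.34 and −0.58. At 4 hr Gsta1 read −4.84, −4.25 and −4.10 and Gsta2 −6.19, −5.58 and −5.60, with log2 differences of 0.25 and 0.78 and wide intervals, from −1.11 to 1.61 and from −0.95 to 2.51. Gsta3, Gsta4, Gstm1, Gstm3, Gstm5 and Gstp1 differed by 0.03, −0.07, 0.02, −0.19, −0.08 and 0.15 at 24 hr. Their intervals reached from −0.80 to 0.62 at most, so that changes of 1.5-fold are not excluded for most of them.

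The other genes of glutathione metabolism give the setting of these changes. They were read from lists drawn up with earlier results of these data known, so their counts describe and do not test. Of 15 other GST genes tested, KBrO3 left 2 higher and 4 lower at 4 hr and 2 higher and 6 lower at 24 hr, when 44% and 33.7% of all genes were altered. Co-exposure left 3 higher and 6 lower and 1 higher and 5 lower, against 54.6% and 39.5%, so that most of these counts are near the background. The median log2 change of this list lay between −0.46 and −0.27, when that of all genes lay between −0.07 and 0.02. Gsto1, an omega-class enzyme with thioltransferase activity, rose at 4 hr with a fold change of 2.71 after KBrO3 and 2.80 after co-exposure, and Gstt3, a theta-class gene, fell to −2.92 and −4.18. At 24 hr Mgst2, a microsomal enzyme that also makes leukotriene C4, fell to −8.06 after KBrO3 and −3.90 after co-exposure, and Gstm6, another mu-class gene, to −4.62 after KBrO3, where 1 of 3 arrays was well above background. After co-exposure no array read Gstm6 well above background, so that it was at least 2.17-fold lower. With BPA alone, 1 of the 15 was altered, Gstt4, at 3.78 at 4 hr and 2.36 at 24 hr.

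Of 28 genes for glutathione synthesis, reduction, export and breakdown tested in the first set, 12 were higher and 4 lower after KBrO3 at 4 hr and 11 higher and 7 lower after co-exposure. Among all genes, 21.1% were higher and 22.8% lower after KBrO3, and 28.1% and 26.5% after co-exposure. The counts of lower genes are thus near or below the background. Gclc, the catalytic subunit of the rate-limiting enzyme of glutathione synthesis, rose 39.5-fold after KBrO3 and 37.2-fold after co-exposure. Slc7a11, which brings cystine into the cell, rose 32.8-fold and 50.5-fold. At 24 hr 7 genes were higher and 9 lower after KBrO3, and 9 higher and 7 lower after co-exposure. Over all genes, 12.7% were higher and 21.1% lower after KBrO3, and 15.7% and 23.9% after co-exposure. Ggt5, a gamma-glutamyltransferase, fell to −36.0 and −44.3, Anpep, a peptidase that cleaves cysteinylglycine, to −5.65 after KBrO3, and Gpx3, a secreted glutathione peroxidase, was at least 4.05-fold lower after co-exposure, where no array read it well above background. BPA alone left 4 of 29 higher at 4 hr and 7 at 24 hr, with 0 lower. Of all genes, 3.01% were higher and 1.67% lower at 4 hr, and 1.83% and 2.48% at 24 hr. Slc7a11 rose to 4.09 and 3.23 with BPA, and Chac1, which degrades glutathione, to 4.84 and 4.54.

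The NRF2 and AHR list moved early. Of its 14 genes tested, 11 were higher and 3 lower after KBrO3 at 4 hr and 10 higher and 3 lower after co-exposure, with median log2 changes of 1.53 and 1.35. Among all genes, 21.1% were higher and 22.8% lower after KBrO3 and 28.1% and 26.5% after co-exposure, with medians of 0.02 and 0.01. At 24 hr the counts were 2 higher and 1 lower after KBrO3, with a median of 0.08, and 6 higher and 1 lower after co-exposure, with a median of 0.33. Over all genes, 12.7% were higher and 21.1% lower after KBrO3 and 15.7% and 23.9% after co-exposure, with medians of −0.07 and −0.06. The KBrO3 counts at 24 hr were thus near or below the background. Hmox1, which degrades heme and is a classic NRF2 target, rose 74.7-fold and 81.4-fold at 4 hr and was 3.93-fold higher after co-exposure at 24 hr. Srxn1, which restores oxidized peroxiredoxins, rose 33.3-fold and 27.8-fold at 4 hr and was 3.08-fold higher after co-exposure at 24 hr. After KBrO3 at 24 hr the named changes were Ahrr, the AHR repressor, at −1.89 and Tiparp, an AHR target, at 1.66. With BPA alone 4 of 16 genes were higher and 1 lower at 4 hr, with Hmox1 at 2.83 and Ahrr at −2.45, and 2 higher and 1 lower at 24 hr, with Hmox1 at 3.22 and Aldh3a1, an aldehyde dehydrogenase, at −3.85 with 2 of 3 arrays well above background. For all genes tested with BPA alone, 3.01% were higher and 1.67% lower at 4 hr, and 1.83% and 2.48% at 24 hr.

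**Figure D4:**
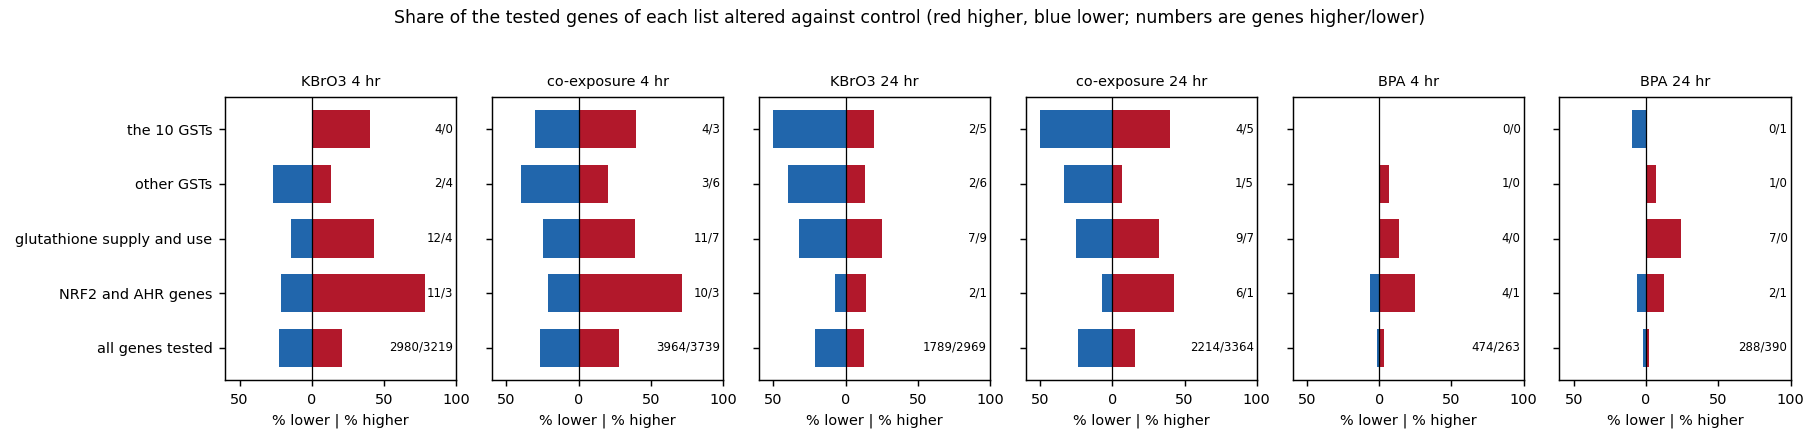
Share of the tested genes of each list that were altered against control, in percent (horizontal axis, higher to the right in red and lower to the left in blue), with the number higher and lower beside each bar. In the NRF2 and AHR list, 11 genes were higher and 3 lower after KBrO3 at 4 hr; all genes tested are shown for reference.

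Promoter sequence is given for Gsta1 and Gsta2, the pair that rose together, from RefSeq on GRCm38.p6, a later build than that of the array files. The 250 bases before the start that the promoter table uses lie at chr9:78230419-78230668 on the plus strand for Gsta1 and at chr9:78347146-78347395 on the minus strand for Gsta2, where the gene's annotated span reaches 47 bases into the window. Aligned without gaps over 247 bases, 55.1% of the bases are the same. Capitals mark identical runs of 8 or more bases, the longest of which has 29.
Gsta1 promoter: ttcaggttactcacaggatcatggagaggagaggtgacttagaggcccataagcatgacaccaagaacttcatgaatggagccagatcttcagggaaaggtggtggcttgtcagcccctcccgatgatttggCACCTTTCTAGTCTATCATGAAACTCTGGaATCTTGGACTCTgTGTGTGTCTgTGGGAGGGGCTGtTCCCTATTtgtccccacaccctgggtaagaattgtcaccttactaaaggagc
Gsta2 promoter: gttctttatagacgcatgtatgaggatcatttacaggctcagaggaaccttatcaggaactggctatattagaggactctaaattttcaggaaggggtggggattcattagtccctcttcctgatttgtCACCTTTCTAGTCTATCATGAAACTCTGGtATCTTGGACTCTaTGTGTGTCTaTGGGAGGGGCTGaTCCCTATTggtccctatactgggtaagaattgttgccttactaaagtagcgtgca
Both strands of such windows were searched for TGACNNNGC, the core of the antioxidant response element that NRF2 binds, and GCGTG, the core of the element that AHR binds. Promoters were listed for 9 of the 10 genes. TGACNNNGC was found for 2 of them, Gsta3 and Gstm5, and in 10.2% of 32851 promoters. GCGTG was found for 4, Gsta2, Gstm1, Gstm5 and Gstp1, and in 28.2% of promoters, and in Gstm5 a match of each overlaps the other. The letters say nothing of binding in these cells.

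Genes with a pattern like that of Gsta1 were sought over the 5 group means of the first set, among 2039 other genes that differed from control by at least 2 on the log2 scale in some group. The closest was Gsta2, with a Pearson r of 0.9998, whose probe shares sequence with that of Gsta1. Next came Mybbp1a at 0.9899, Ido1 at 0.9888, Ralgps2 at 0.9785 and Bmp8a at 0.9782. These values describe 5 groups that share arrays and controls, and a large step from control to all treated groups is enough to give a high value.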

How the data were processed

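RNA of 24 cell samples was read on 1-color Agilent arrays after Cy3 labeling. The intensity values that the authors deposited are each spot's processed signal from Feature Extraction, with background removed within the array and no normalization between arrays. The file headers name version 9.5.3.1 for the first set and 12.0.0.7 for the second, and the submitters' processing notes name 12.0. The deposited series table repeats these intensity values, with 1080432 of 1080432 equal within a relative difference of 1e-05. Signals were taken to log2 and centered by subtracting the array's 75th percentile, computed on 43379 non-control spots. Outlier spots were dropped (14 spots of the GST genes over all arrays) and repeat spots averaged. RefSeq GRCm38.p6 gave the gene names, by accession first and by symbol otherwise, and the brightest probe on average over the 24 arrays stands for a gene. A probe entered the test when some group had it well above background on all 3 arrays. This kept 27309 probes for the first set and 31810 for the second, among them probes of all 10 GST genes in both. limma 3.58.1 (lmFit and eBayes, R 4.3.3) was fitted to each set over all its groups, with two-sided p-values and Benjamini-Hochberg adjustment over the probes tested. The threshold in the study's methods, a Bonferroni p below 0.01, was run as an alternative, as were quantile normalization, scaling to the array median, normexp on raw signals minus local background (the deposited mean intensity in the first set and the median intensity in the second), other filters, blocks for slide and replicate number, and leaving out each array. On simulated data for KBrO3 at 4 hr (27310 probes), the fit found 77.5% of 200 probes changed 2-fold and 92% of those changed 4-fold. For BPA at 4 hr (31810 probes) it found 0% and 69.5%. Of probes changed 1.5-fold it found 36.5% for KBrO3 and 0% for BPA. The simulated arrays were independent of each other, and 200 probes were changed, whereas 6199 and 737 genes were altered in the data. These shares therefore do not give the recovery in the data. Precision is limited by there being 3 arrays in a group. The naming rule covers all 10 GST genes in every comparison, and for BPA alone from 4 to 24 hr they are given as a range. Of each further list, the 2 altered genes with the largest fold change against control are named. The genes and lists were chosen with earlier results of these data known. Files were read and plots drawn with Python 3.11.15, pandas 2.3.3 and matplotlib 3.10.9.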

Additional observations from a re-analysis of the deposited data

Results flagged for a closer look

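Effects that differed between the 2 sampling times by their own test are listed as log2 values. After KBrO3 alone, the change from 4 to 24 hr was −1.30 for Gsta1, −1.25 for Gsta2, −1.75 for Gsta4, −1.51 for Gstm1, −2.69 for Gstm2, −1.24 for Gstm3, −0.99 for Gstm5, −1.04 for Gstp1 and −2.22 for Gstt1. After co-exposure it was 1.45 for Gsta3, −2.60 for Gstm2, −0.61 for Gstm5 and −2.08 for Gstt1, of which that of Gstm5 was within 1.5-fold with the slide as a fixed block, at −0.58. The difference that BPA made in KBrO3-treated cells changed between the times by 1.85 for Gsta1, 1.72 for Gsta2, 1.53 for Gsta3, 2.16 for Gsta4, 1.40 for Gstm1, 0.86 for Gstm3 and 0.65 for Gstp1. For the changes after KBrO3 alone and the last group, slide and time cannot be told apart.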

How the results depend on the processing

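Counts of altered GST genes, against control or for BPA added to KBrO3 at 1 time, are given for the settings that moved them by more than 1.5 times. Keeping the probes that were above background throughout a set, which removes the dim alpha-class probes, left 2 genes for KBrO3 at 4 hr, 1 for BPA added to KBrO3 at 4 hr and 1 for BPA added at 24 hr. The Bonferroni threshold of the methods left 4 for co-exposure at 4 hr, 1 for BPA added at 4 hr and 0 for BPA alone at 24 hr. Scaling to the array median gave 7 for BPA added at 4 hr and 0 for BPA alone at 24 hr, and normexp gave 1 for BPA added at 4 hr, 1 at 24 hr and 0 for BPA alone at 24 hr. Replicate numbers were not taken to pair the samples, as residuals of same-numbered arrays correlated at −0.21 to 0.11 (mean −0.029, 30 pairs) in the first set and −0.38 to 0.65 (mean 0.002, 9 pairs) in the second. For BPA alone at 24 hr, the replicate block gave 0 (Gstt1 at −1.05, the 1 call it changed), slide as a fixed block 0, only the compared arrays 0, and slide as a random block 2, with Gstm2 added. Leaving out single arrays gave 4 to 4 genes for KBrO3 at 4 hr, 7 to 7 at 24 hr, 6 to 7 for co-exposure at 4 hr, 9 to 9 at 24 hr, 2 to 2 for BPA added at 4 hr, 4 to 5 at 24 hr, 0 to 0 for BPA alone at 4 hr and 0 to 3 at 24 hr. Gsta3 reversed with normexp, to −1.50 for KBrO3 at 24 hr and −0.68 for co-exposure at 24 hr; the cause was not tested. Of 120 single values, 112 kept their call with quantile normalization, 104 with scaling to the array median and 102 with normexp, among them 7, 7 and 17 values without a call that changed sign. Scaling to the array median moved the share of higher calls among all genes from 37.6% to 53.3% for KBrO3 at 24 hr, from 39.7% to 65.9% for co-exposure at 24 hr, from 53.9% to 33.4% for BPA added at 4 hr and from 46.3% to 71.8% at 24 hr, and from 49.7% to 80.2% for the change between the times in what BPA added. From 4 to 24 hr after KBrO3 it was 40.1%, 50.3% with the array median and 52.8% with quantile normalization. A fixed slide block could not be fitted for KBrO3 at 24 hr, for co-exposure against control or for BPA added at 4 hr. Readings near background limit Gsta1, Gsta2 and Gsta3 in the controls.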
